A study of Mus musculus with 6 samples.

Results

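The m6A levels described here are those of Trp53, Mdm2 and Cdkn1a, which encode p53, its inhibitor MDM2 and the cell cycle inhibitor p21. The members are the positions listed in the deposited m6A table that fell inside the window of each gene in the mouse genome build GRCm39. The windows ran from 69471185 to 69482699 on chromosome 11 for Trp53, from 117524780 to 117546663 on chromosome 10 for Mdm2 and from 29309953 to 29319696 on chromosome 17 for Cdkn1a. Trp53 and Cdkn1a are transcribed toward rising coordinates and Mdm2 toward falling ones. Of the 567667 rows of the table, 193 fell in the windows, with 29 in Trp53, 89 in Mdm2 and 75 in Cdkn1a.

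The samples were 6 primary cultures of HCICs, the HCC-initiating cells isolated from livers of male C57BL/6 mice given the carcinogen diethylnitrosamine when young. In 3 samples Mthfd1l was wild type (MTH-WT) and in 3 it was knocked out (MTH-D), and the labels number each group 1 to 3. Mthfd1l encodes the mitochondrial enzyme that makes formate for the methionine cycle. By the methods of the study, both groups were single colonies infected with LentiCRISPRv2 and selected with puromycin, so Cas9 was present in both, and MTH-D colonies also received guides against Mthfd1l. The study derived its HCIC lines from 1 control (CTL) and 2 double knock-in (DKI) mice. DKI mice keep wild-type p53 but carry a point mutation of MDM2 that blocks its binding to ribosomal proteins, and serine mutations of MDMX that prevent its phosphorylation under stress. It calls the CTL line HCIC-1 and the DKI lines HCIC-2 and HCIC-3, and its text speaks of m6A sequencing in HCIC-1 and HCIC-3. The labels give each sample a number but do not tie it to a line, so which samples carry mutant Mdm2 is not settled here, and the samples numbered 1 and 3 alone were an alternative. The study's text describes only a small deletion in MTH-D HCIC-2, and a fraction of m6A does not show how much Mthfd1l RNA a library held, so the knockout was not checked here. All samples carry the same batch label, and nothing in the labels says that samples of a group came from separate colonies.

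p53 is a transcription factor that halts division or kills cells under stress. MDM2, itself a target gene of p53, is the ubiquitin ligase that keeps p53 low, and p21, another p53 target, blocks cyclin-dependent kinases. N6-methyladenosine (m6A) is placed on mRNA by METTL3 and METTL14 with a methyl group from SAM, mostly in the motif DRACH and mostly near the stop codon and in long last exons. DRACH stands for A, G or T, then A or G, then the methylated A, then C, then A, C or T. Readers of m6A can shorten the life of an mRNA, stabilise it or change its translation.

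Each library of native RNA used 1000 ng and was sequenced by nanopore for at most 72 h, with a separate flow cell per sample. The table gives the fraction of m6A at a position, converted here to percent, and gives no reads or coverage. The depth behind each value is therefore unknown, and no counting interval was computed. At 58.6% of the Trp53 positions, 43.8% of those in Mdm2 and 42.7% of those in Cdkn1a, at least 1 of the 6 samples had a value of exactly 0 or 100%, against 64.0% in the whole table. Because the sequence of GRCm39 was not used here, no base sequence is printed for a position, and none is assigned to an exon or a UTR. The other genes of the p53 pathway, markers of the cultured cells and the genes most similar to these were not analysed here for want of their GRCm39 coordinates.

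For context, 1 coding transcript of each gene from GENCODE M21, on GRCm38, was searched for DRACH on its own strand, without matching any motif to a listed position. That of Trp53 has 11 exons, 1772 bases and 27 DRACH motifs, or 15.2 per kb. Only 8 of them lie in its last exon of 524 bases. That of Mdm2 has 12 exons and 3099 bases with 58 motifs, or 18.7 per kb, of which 41 lie in a last exon of 1911 bases that holds the final 576 coding bases. That of Cdkn1a has 3 exons and 1913 bases with 38 motifs, or 19.9 per kb, of which 29 lie in its last exon of 1379 bases. The median over 21291 coding transcripts was 20.3 per kb, with quartiles of 17.7 and 22.7. Trp53 thus had fewer motifs per kb than the lower quartile. The window of each gene listed more positions than its transcript has motifs, with 29 in Trp53, 89 in Mdm2 and 75 in Cdkn1a.

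Trp53 had far less m6A than Mdm2 and Cdkn1a, whose order depended on the summary used. Averaged over all listed positions and the 6 samples, m6A was 9.01% in Mdm2, 6.87% in Cdkn1a and 0.626% in Trp53, against 6.90% over the whole table. The lowest Mdm2 sample (7.97%) was above the highest Cdkn1a sample (7.5%), and the lowest Cdkn1a sample (6.23%) was above the highest Trp53 sample (0.921%), so the ranges over samples did not overlap. Positions averaging at least 10% m6A over the 6 samples numbered 22 of 89 in Mdm2 (24.7%), 12 of 75 in Cdkn1a (16%) and 0 of 29 in Trp53, against 14.3% of the whole table. These 22 and 12 positions are called m6A sites below, a limit that does not use the groups. Over the sites, the mean of the 6 samples was 31.9% in Mdm2 and 33.7% in Cdkn1a, and the ranges over samples overlapped. The median listed position also averaged less in Mdm2 (1.14%) than in Cdkn1a (1.35%). Mdm2 was thus above Cdkn1a in the mean over all listed positions but not in these summaries.

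**Figure D1:**
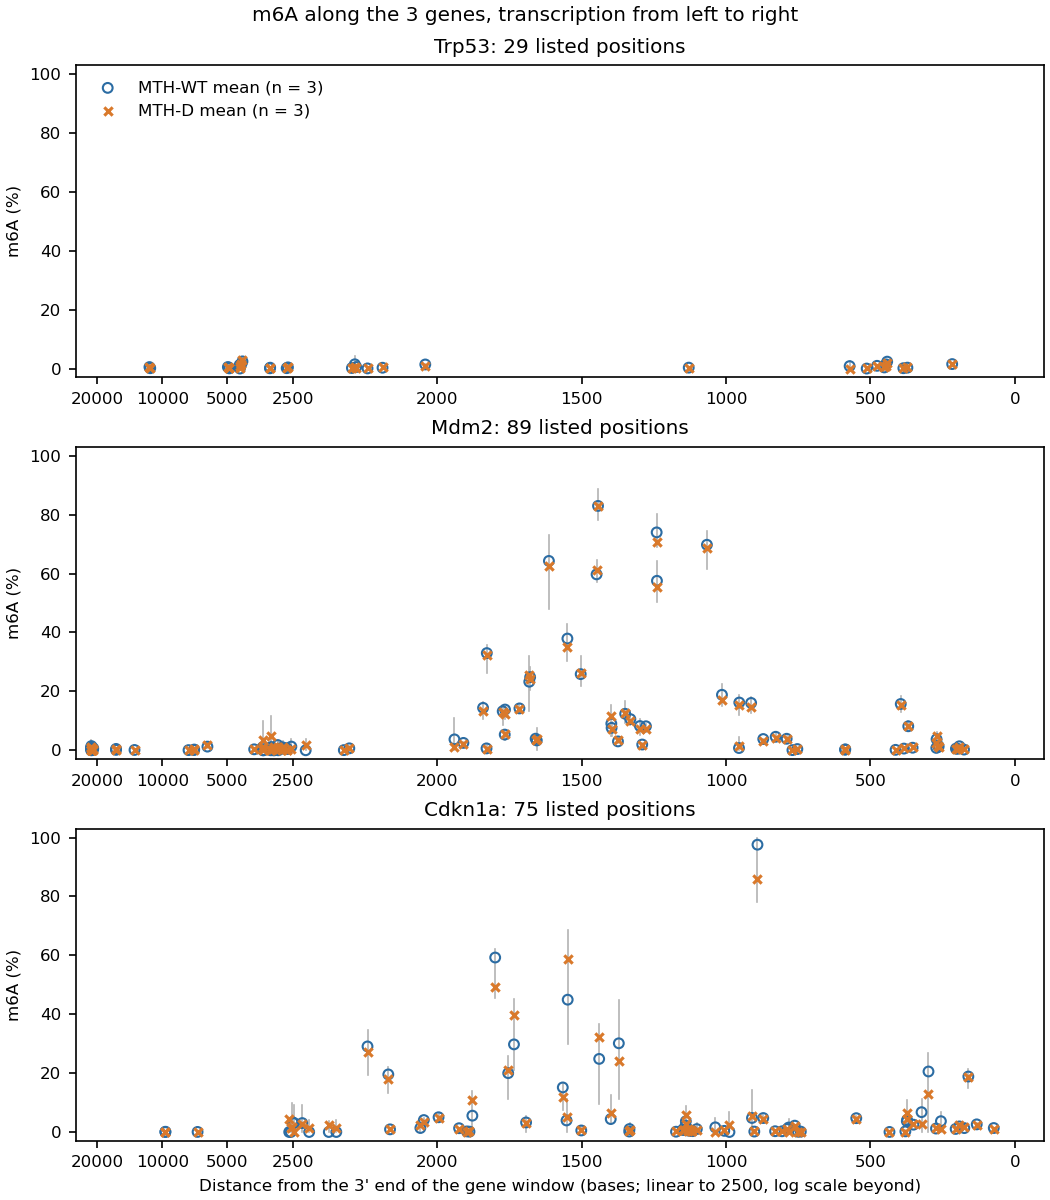
m6A in percent (y) at each listed position against its distance in bases from the 3′ end of the gene window (x, linear near the end and logarithmic beyond), for Trp53, Mdm2 and Cdkn1a. Circles are means of the 3 MTH-WT samples, crosses are means of the 3 MTH-D samples and grey lines span the 6 samples. All 29 Trp53 positions lie near 0, whereas Mdm2 and Cdkn1a have sites above 50% within the last 2 kb.

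Trp53 was almost without m6A at every listed position. Its 29 positions averaged from 0.0267 to 2.67% over the 6 samples, with 27 under 2% and a median of 0.395%. The highest single value in any sample was 4.35%. The most methylated position, 69478435 on chromosome 11, lay 4264 bases from the 3′ end of the window and had 2.11, 2.40 and 2.80% in MTH-WT samples 1 to 3 and 3.71, 2.93 and 2.09% in MTH-D samples 1 to 3. The groups overlapped there. Over the gene, 16 of 29 positions had a lower mean in MTH-D, against 50.6% of all positions of the table. The next highest was 69482257, only 442 bases from the 3′ end, with 2.58, 2.43 and 2.03% in MTH-WT and 1.83, 1.78 and 1.70% in MTH-D. It was the only Trp53 position at which the groups did not overlap, all MTH-D samples being lower by a mean of 0.577 percentage points (limma, unadjusted p = 0.283 and adjusted p = 0.939). Across the table, groups did not overlap at 2.88% of positions with MTH-D lower and at 2.79% with MTH-D higher. The 9 positions in the last kb of the Trp53 window averaged 0.776%, and the 7 positions between 4 and 5 kb from the end averaged 0.870%.

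Per sample, the mean over the 29 Trp53 positions was 0.577, 0.921 and 0.533% in MTH-WT samples 1 to 3 and 0.609, 0.581 and 0.537% in MTH-D samples 1 to 3. One library, MTH-WT 2, was higher than the other 5, which lay close together. Its highest values were 4.35% at 69480414, where MTH-D 1 had 1.37%, and 2.5% at 69482127. All remaining values at these positions were exactly 0. The group means were 0.677% ± 0.213 (SD, n = 3) for MTH-WT samples and 0.576% ± 0.0363 (SD, n = 3) for MTH-D samples. Their difference of -0.101 points was smaller than the MTH-WT spread (p = 0.90 by a two-sided exact permutation test, whose smallest p with 3 against 3 is 0.10). Without MTH-WT 2 the difference turned to 0.0209 points.

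Mdm2 carried a compact group of strong sites close to its 3′ end. Its 22 sites lay between 395 and 1841 bases from the 3′ end of the window, a span of 1447 bases that held 40 of the 89 listed positions. Within it, 19 sites fell between 1 and 2 kb from the end, where the 30 listed positions averaged 23.4%. The 36 Mdm2 positions farther than 2 kb from the 3′ end held no site, and none of the 1-kb bins there averaged over 1.44%. The 6 sites averaging at least 50% accounted for 50.5% of the m6A summed over the listed positions of the gene. Among them, 117526020 and 117526019 are neighbouring bases, which cannot both be the adenosine of a DRACH motif. The sum and the counts of sites may therefore include the same adenosine more than once.

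The most methylated Mdm2 site was 117526223 on chromosome 10, which is 1443 bases from the 3′ end. It had 83.37, 83.78 and 81.79% in MTH-WT samples 1 to 3 and 81.53, 88.82 and 78.16% in MTH-D samples 1 to 3. The MTH-D samples spread on both sides of the MTH-WT samples, and the group means differed by -0.143 points. Only 5 bases away, site 117526228 had 59.98, 59.87 and 59.37% in MTH-WT and 62.01, 64.68 and 57.11% in MTH-D. The MTH-WT samples agreed there within 1 point, and those of MTH-D lay above and below them.

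The neighbouring sites 117526020 and 117526019 averaged 72.3 and 56.5% over the 6 samples. The former showed the largest fall of the group mean among the Mdm2 sites, 3.38 points. Its values were 70.56, 80.30 and 71.13% in MTH-WT and 70.12, 72.67 and 69.06% in MTH-D. MTH-WT 2 stood above the other 5 samples, and the ranges of the groups overlapped. At 117526019 MTH-WT samples had 53.56, 64.24 and 54.86% and MTH-D samples 56.33, 59.89 and 50.32%, and the groups overlapped again. Since the base after the A of a DRACH motif is a C, neighbouring bases cannot both be the adenosine of this motif, and which of them is was not tested. Of the listed positions, 16 of 89 in Mdm2 (18.0%), 8 of 75 in Cdkn1a (10.7%) and 0 of 29 in Trp53 had a listed neighbour, against 2.56% of the whole table.

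The other Mdm2 sites named by rank behaved likewise. Site 117525846 averaged 69.2%, from 61.71% in MTH-D 3 to 74.61% in MTH-WT 2. Site 117526393 averaged 63.4% with the widest spread, from 47.83% in MTH-D 2 to 73.21% in MTH-WT 1. Site 117526329 averaged 36.6% and site 117526608 averaged 32.8%, both lowest in MTH-D 3. The largest rise of the group mean, 2.41 points, was at the weak site 117526177, where MTH-D ranged from 4.76 to 15.38% and MTH-WT from 7.14 to 10.26%. The remaining 13 sites averaged between 10.2 and 26.1%, and their group means differed by -1.64 to 2.39 points. None of the 22 sites separated the groups.

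**Figure D2:**
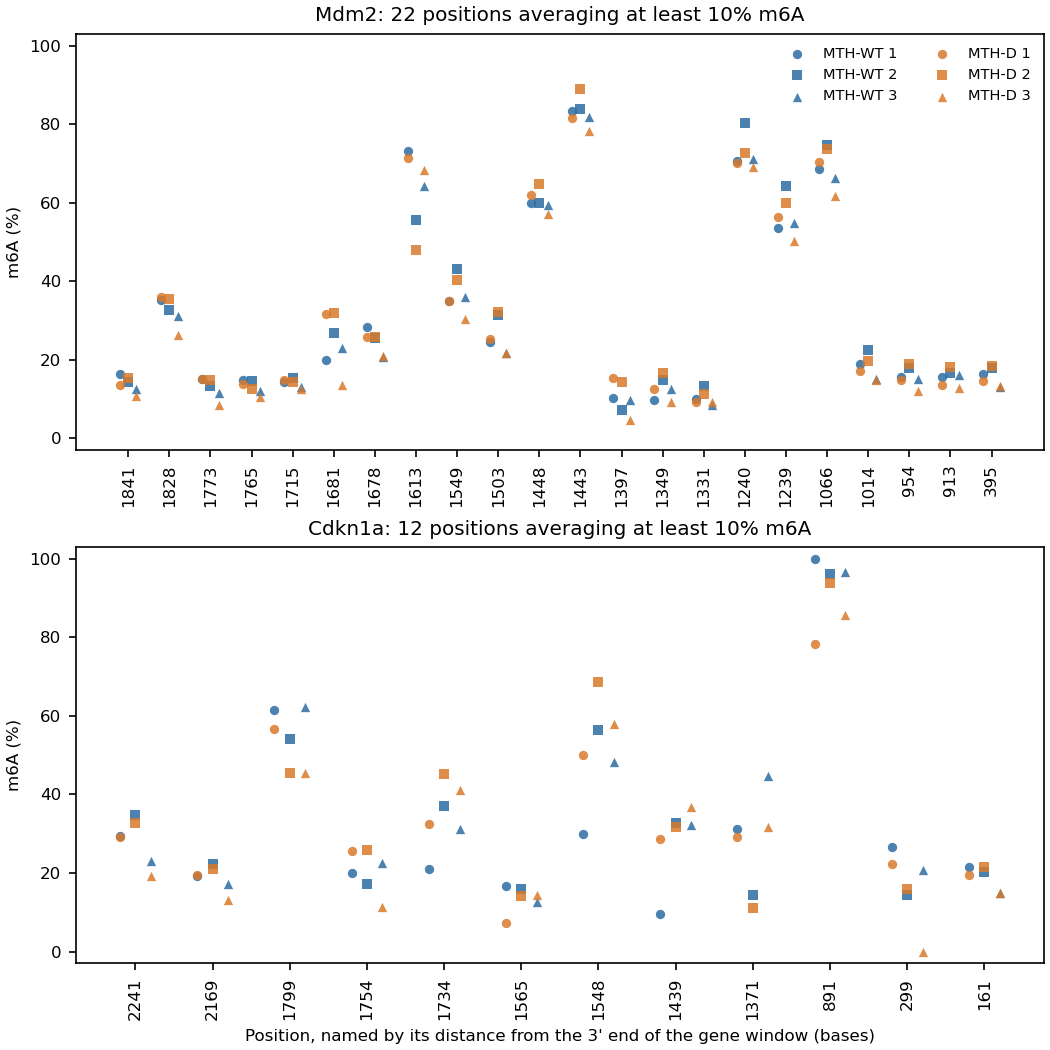
m6A in percent (y) in each of the 6 samples at the 22 Mdm2 sites and the 12 Cdkn1a sites (x, named by distance in bases from the 3′ end of the window). Blue marks MTH-WT and orange MTH-D, and circles, squares and triangles mark samples numbered 1, 2 and 3. Samples lie close together at most Mdm2 sites and farther apart at most Cdkn1a sites, and the colours separate only at the Cdkn1a site 891 bases from the end.

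Over the 22 Mdm2 sites, mean m6A per sample was 32.2, 33.9 and 30.4% in MTH-WT samples 1 to 3 and 32.7, 34.0 and 28.0% in MTH-D samples 1 to 3. MTH-D 3 was the lowest of all samples, and both samples numbered 2 were the highest. The group means were 32.2% ± 1.75 (SD, n = 3) for MTH-WT samples and 31.6% ± 3.14 (SD, n = 3) for MTH-D samples. The difference of -0.619 points was smaller than either SD (exact permutation test, p = 0.90). Without MTH-D 3 it turned to 1.16 points, and without MTH-WT 2 to 0.236 points. Over all 89 listed positions the means were 9.06% ± 0.439 (SD, n = 3) and 8.96% ± 0.871 (SD, n = 3), which differed by -0.0997 points (p = 0.90, exact permutation). This too reversed without MTH-D 3, to 0.396 points, and without MTH-WT 2, to 0.0712 points.

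The group mean was lower in MTH-D at 17 of 22 Mdm2 sites, with a median difference of -0.693 points. Across the table, 57.9% of positions averaging at least 10% were lower in MTH-D, with a median of -0.687 points. No Mdm2 site differed by 5 points or more in either direction, whereas 15.2% of such positions in the table were lower and 9.28% higher by as much. At none of the 22 sites did the groups fail to overlap, against 3.38% of such positions with MTH-D lower and 2.07% with MTH-D higher. Only 1 of the 22 sites, 117526545 (13.8% in MTH-WT and 12.2% in MTH-D), had a difference larger than the SD of both groups, against 4 of 12 in Cdkn1a and 13.4% of such positions in the table.

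Cdkn1a had fewer sites, more scattered along the gene and more variable between samples. Its 12 sites lay between 161 and 2241 bases from the 3′ end of the window, a span of 2081 bases with 62 of the 75 listed positions. The last kb held 3 sites, the next kb 7 and the third kb 2. Farther than 3 kb from the end, 3 positions were listed, and the highest of them averaged 0.0583%. The SD between samples of a group had a median over the sites of 5.20 points in MTH-WT and 6.77 points in MTH-D, against 2.47 and 3.72 points over the Mdm2 sites. Several Cdkn1a sites had values that few reads can give, such as 30 and 50% in MTH-WT 1 and MTH-D 1 at 29318148. At the listed position 29318794, 902 bases from the end, the samples had 0.11 to 0.33%, which few reads cannot give. Coverage is not given, so whether fewer reads lay behind the Cdkn1a sites was not tested.

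Cdkn1a also held the only site of the 3 genes at which the groups did not overlap. At 29318805 on chromosome 17, 891 bases from the 3′ end, MTH-WT samples 1 to 3 had 100, 96.15 and 96.55% and MTH-D samples 1 to 3 had 78.26, 93.75 and 85.71%. Every MTH-D sample was below every MTH-WT sample, though MTH-D 2 by less than 3 points. Values such as 85.71, 93.75 and 100% can come from few reads. Without coverage, how few reads would undo this separation is unknown. The means were 97.6% ± 2.12 (SD, n = 3) and 85.9% ± 7.75 (SD, n = 3), and the difference of -11.7 points was the largest fall among the Cdkn1a sites. In limma the change was -2.47 in log2 odds with an SE of 0.776, an unadjusted p of 0.0171 and an adjusted p of 0.939 by Benjamini-Hochberg over all 567667 rows, so the position did not pass. With the sample number as a block its unadjusted p was 0.0536.

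The largest rise was at 29318148, a site 1548 bases from the end, with 30, 56.52 and 48.28% in MTH-WT and 50, 68.57 and 57.89% in MTH-D. Each MTH-D sample was higher than the MTH-WT sample of the same number, by 20, 12.05 and 9.61 points, although the groups overlapped. The means were 44.9% ± 13.6 (SD, n = 3) and 58.8% ± 9.32 (SD, n = 3). The limma test gave an unadjusted p of 0.147, which with the sample number as a block became 0.0384, and neither passed after adjustment (adjusted p = 0.939 and 0.874). Site 29317962, 1734 bases from the end, was likewise higher in each same-numbered pair, with means of 29.8% ± 8.06 (SD, n = 3) for MTH-WT samples and 39.6% ± 6.55 (SD, n = 3) for MTH-D samples. Site 29317897, at 1799 bases, went the other way in each pair, from 61.54, 54.05 and 62.16% in MTH-WT to 56.67, 45.45 and 45.45% in MTH-D. Site 29317897 thus differed in the opposite direction to 29317962 and 29318148, none past the test. Values such as 30, 45.45 and 50% can come from few reads, and the depth at these sites is unknown.

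Of the other highest Cdkn1a sites, 29318257 averaged 28.6%, and 1 library set its group mean: MTH-WT 1 had 9.52%, against 28.57 to 36.84% in the other 5 samples. Site 29317455, the farthest from the end, averaged 28.1%, from 19.29% in MTH-D 3 to 34.74% in MTH-WT 2. Site 29318325 averaged 27.1%, with 14.29 and 11.11% in the samples numbered 2 and 29.17 to 44.83% in the rest. Site 29317942 averaged 20.5%, from 11.36% in MTH-D 3 to 25.86% in MTH-D 2. The remaining 4 sites averaged between 13.5 and 18.8%, and at each the group mean was lower in MTH-D, with differences from -7.81 to -0.29 points. The groups overlapped at all 4.

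Over the 12 Cdkn1a sites, mean m6A per sample was 32.2, 34.6 and 35.5% in MTH-WT samples 1 to 3 and 33.2, 35.6 and 31.0% in MTH-D samples 1 to 3. The highest was MTH-D 2 and the lowest MTH-D 3, so MTH-D enclosed MTH-WT. The group means were 34.1% ± 1.70 (SD, n = 3) and 33.3% ± 2.31 (SD, n = 3), and the difference of -0.874 points was smaller than either SD (exact permutation test, p = 0.70). It turned to 0.271 points without MTH-D 3. Over all 75 positions the means were 6.85% ± 0.512 (SD, n = 3) and 6.88% ± 0.636 (SD, n = 3), which differed by 0.0339 points (p = 1.0, exact permutation). This reversed to -0.245 points without MTH-WT 1 and to -0.273 points without MTH-D 2. The 5 gene-level tests, adjusted by Benjamini-Hochberg, all gave 1.0.

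At the Cdkn1a sites the group mean was lower in MTH-D at 8 of 12, by 5 points or more at 4 of them (29317897, 29318325, 29318805 and 29319397), and higher by as much at 3 (29317962, 29318148 and 29318257). The background shares for falls and rises of that size were 15.2% and 9.28%. The read depth behind these Cdkn1a differences is unknown. MTH-D was lower in all 3 same-numbered pairs at 4 of 12 Cdkn1a sites (29317455, 29317897, 29318325 and 29318805) and at 4 of 22 Mdm2 sites (117525794, 117526020, 117526329 and 117526545), against 16.4% of the table. It was higher in all 3 pairs at 2 of 12 Cdkn1a sites (29317962 and 29318148) and 0 of 22 Mdm2 sites, against 9.07%.

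**Figure D3:**
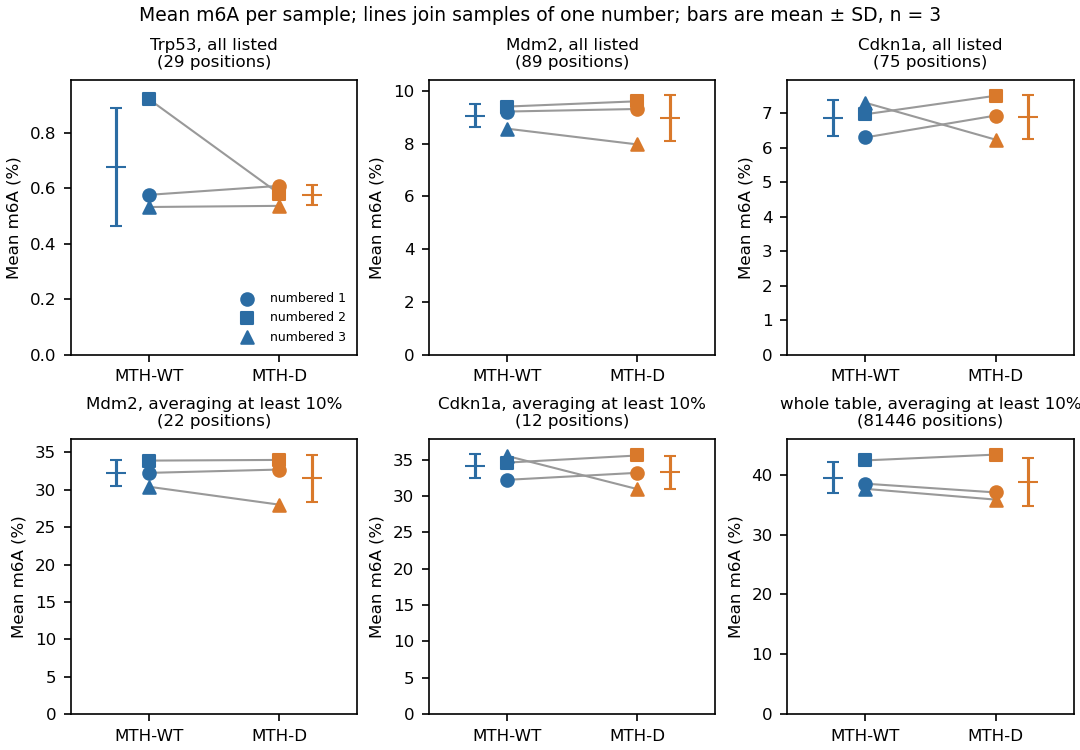
Mean m6A in percent (y) of each sample for Trp53, Mdm2 and Cdkn1a over all listed positions, and for Mdm2, Cdkn1a and the whole table over positions averaging at least 10%, in MTH-WT and MTH-D (x). Grey lines join samples of one number, and bars show the group mean ± SD (n = 3). The groups overlap in each panel, and in the panels of Mdm2 and Cdkn1a the samples numbered 3 are the pair that falls.

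The direction of the difference changed between the numbered pairs. Over the Mdm2 sites m6A was 0.443 points higher in MTH-D in the samples numbered 1, 0.0909 points higher in those numbered 2 and 2.39 points lower in those numbered 3 (difference -2.39). Over the Cdkn1a sites the differences were 0.967, 0.978 and -4.57 points. Over the 81446 positions of the table averaging at least 10% they were -1.46, 0.970 and -1.79 points. In the samples numbered 1 the mean and the median of the site differences differed in sign, the median being -0.27 points over the Mdm2 sites and -1.13 points over the Cdkn1a sites, against -1.17 points over the table. Site by site, MTH-D was lower in the samples numbered 3 at 17 of 22 Mdm2 sites and 8 of 12 Cdkn1a sites (61.8% of the table). In the samples numbered 1 it was lower at 12 of 22 and 7 of 12 (58.7% of the table), and in those numbered 2 at 9 of 22 and 7 of 12 (43.6% of the table).

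**Figure D4:**
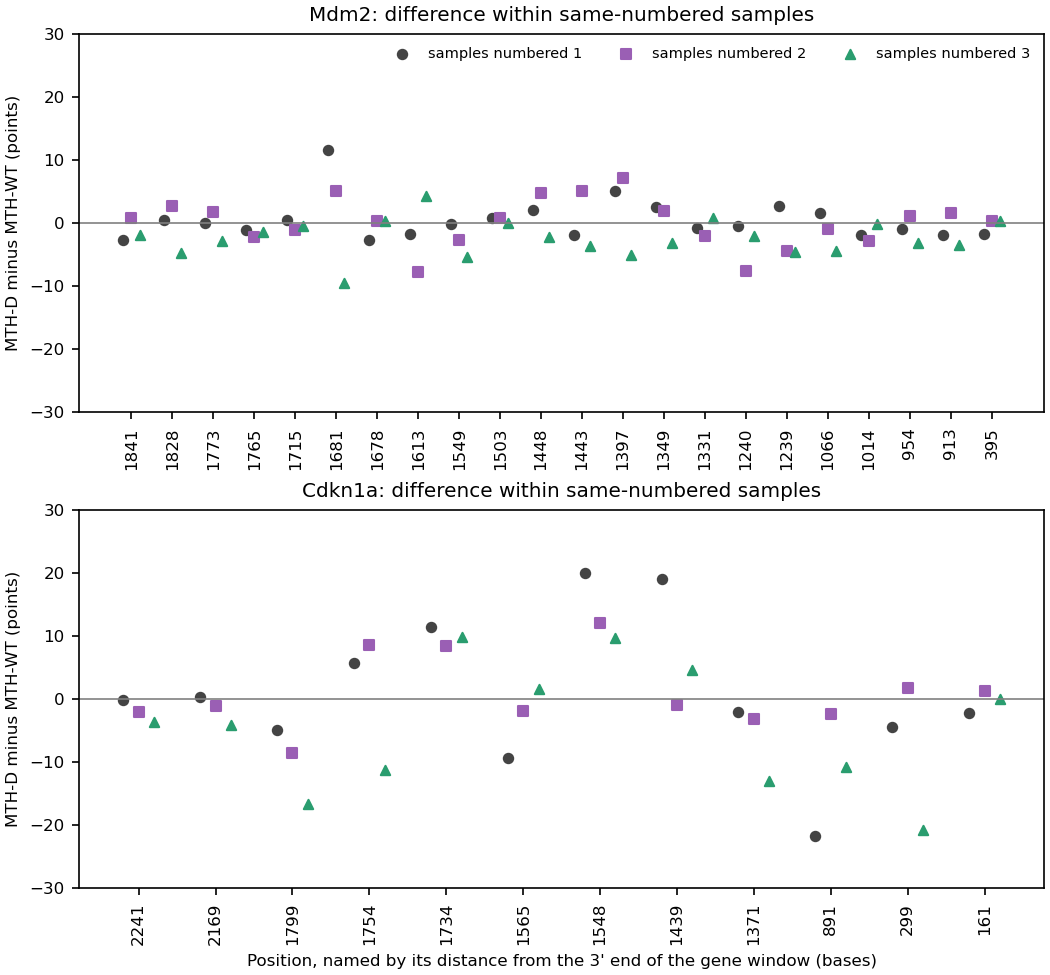
Difference of MTH-D from MTH-WT in percentage points (y) within the samples numbered 1 (circles), 2 (squares) and 3 (triangles) at the Mdm2 and Cdkn1a sites (x, named by distance in bases from the 3′ end of the window). Mdm2 differences lie within 12 points of 0, and those of Cdkn1a reach from -21.74 to 20 points.

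Samples of one number resembled each other at the Mdm2 sites. Both samples numbered 2 were the highest of the 6 at 12 of 22 sites, or 54.5%, against 38.1% of positions averaging at least 10% in the table. Both samples numbered 3 were the lowest at 12 of 22 sites, against 18.1% in the table. Over the 12 Cdkn1a sites the corresponding numbers were 2 and 3. MTH-D 3 was the lowest sample, or level with it, at 18 of the 22 Mdm2 sites. The order of the sites was alike in the groups, more so in Mdm2. The MTH-WT and MTH-D means had a Spearman correlation of 0.990 across the 22 Mdm2 sites and 0.895 across the 12 Cdkn1a sites. Their Pearson correlations were 0.998 and 0.942. These describe positions of the same libraries, which are not independent replicates.

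Over all listed positions, the groups did not overlap at 1 lower and 1 higher of the 89 Mdm2 positions and at 3 lower and 2 higher of the 75 Cdkn1a positions, against the 2.88% and 2.79% of the table. Besides the site 29318805, they were named after their values were seen, and each averaged at most 3.54%: 117525651 (lower) and 117524956 (higher) in Mdm2, and 29318955 and 29319623 (lower) and 29317102 and 29318580 (higher) in Cdkn1a.

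No single position of the 3 genes passed the test across the table. limma called 0 of 567667 positions at an adjusted p under 0.05 (0%), and 18299, or 3.22%, had an unadjusted p under 0.05. Among the members the latter were 0 of 29 in Trp53, 0 of 89 in Mdm2 and 2 of 75 in Cdkn1a, or 2 of 193 in all. That count was 6 without MTH-D 1 (3.11%), 5 without MTH-D 3 (2.59%) and 4 without MTH-WT 3 (2.07%), while the share of the whole table was 4.74, 4.44 and 4.62% in these settings. One of the 2 was the site 29318805, which with the sample number as a block was no longer under 0.05. The other, 29317102, was no site and is named here after its values were seen. It lies 2594 bases from the 3′ end and had exactly 0 in each MTH-WT sample and 4.35, 4.55 and 3.85% in MTH-D samples 1 to 3. Its adjusted p of 0.117 (unadjusted p = 2.83e-05, limma) was the smallest of the table, shared by 283 positions in all. It was the only member at 0 in every sample of one group and above 0 in every sample of the other, a pattern found at 3672 positions of the table with MTH-WT at 0 and at 2318 with MTH-D at 0. With the sample number as a block, its adjusted p was 0.874. Without coverage, a value of exactly 0 cannot be told from a small share missed among few reads. Nor can the 4.35, 4.55 and 3.85% in MTH-D be told from 1 modified read in each sample.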

How the data were processed

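Direct RNA libraries of the 6 HCIC samples were made with the SQK-RNA004 kit and run on a PromethION. Per the labels, reads were processed with minimap2 2.26 and SAMtools on GRCm39. The basecaller, the m6A model and any filter are not given in the sources used here. The authors deposited a table with the m6A fraction, from 0 to 1, of each position in each sample, with no coverage and no strand. Such a fraction depends on the modification model, and at low coverage it takes few values.

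Fractions were multiplied by 100. A position was a member if it lay in the window of its gene. Gene means per sample were compared by a two-sided exact permutation test, adjusted over the 5 tests that could be made, since Trp53 had no position averaging 10%. For each position, limma (version 3.58.1, R 4.3.3) was run on log2 odds (1 point added to both shares), adjusted by Benjamini-Hochberg over 567667 rows, at a threshold of 0.05. In the table, 6 rows repeat a position, none of them a member. On simulated data with planted changes this test called few of them, even of the largest, so a count of 0 does not show that no position changed.

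Named are up to 8 sites per gene with the highest mean and those with the largest fall and rise of the group mean among sites averaging at least 10%. The members and lists were chosen with earlier results of these data known. Over 81446 positions, the deviations of same-numbered samples correlated at 0.164, 0.223 and 0.133, and those of other pairs at -0.141 to -0.00179. Each was over 0.1, so the numbers were taken to pair the samples, and a fit with the number as a block was an alternative. The alternatives also left out samples, changed the 10% limit, the scale and the summary, and removed positions.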

Additional observations from a re-analysis of the deposited data

How the results depend on the processing

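No gene-level test could pass 0.05, since its smallest possible p is 0.10 with 3 against 3, 0.25 with 3 pairs and 0.333 with 2 against 2, so the p-values of the alternatives, from 0.2 to 1, say nothing about stability. limma called 0 positions at an adjusted p under 0.05 in each of its 11 alternatives, the replicate block included. The direction of the small gene-level differences was not stable, and the cause was not tested. With the sample number as a block the differences equal the unpaired ones by construction (-0.101 points in Trp53, -0.0997 and -0.619 in Mdm2, 0.0339 and -0.874 in Cdkn1a), with an exact sign-flip p of 1 each. The block changed no adjusted call. Leaving out 1 sample at a time gave -0.173 to 0.0209 points in Trp53, -0.421 to 0.396 over all Mdm2 positions, -1.83 to 1.16 over the Mdm2 sites, -0.273 to 0.362 over all Cdkn1a positions and -2.04 to 0.271 over the Cdkn1a sites.

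Other reversals were as follows. Subtracting the mean of the whole table gave 0.0109 points in Trp53 and 0.0126 and 0.142 points over all positions and over the sites of Mdm2. Samples 1 and 3 alone gave 0.0183 points in Trp53 and -0.217 points over all Cdkn1a positions. Over all Mdm2 positions the median gave 0.11 points and the log2 odds scale 0.0108. Over the Cdkn1a sites the median gave 1.51 points, sites without exact 0 or 100% gave 0.899, a limit of 5% gave 0.0396 and a limit of 20% gave 0.310. Among alternatives chosen after seeing the data, leaving out both samples numbered 3 gave 0.149 and 0.267 points over all positions and sites of Mdm2 and 0.972 over the Cdkn1a sites. Over all Cdkn1a positions, leaving out both samples numbered 1 gave -0.266 points, and leaving out the 8 positions with a listed neighbouring base gave -0.0436. The positions with an unadjusted p under 0.05 in limma numbered 18299, against 41997 with samples 1 and 3 alone and 30337 without MTH-D 2. The restriction to annotated exons was not run, for want of a GRCm39 annotation, and no alternative was run for Trp53 sites at 10%.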

Other observations

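At some strong sites the samples differed by number rather than by group. At the Mdm2 site 117526393 the samples numbered 2 had 55.56% in MTH-WT and 47.83% in MTH-D, below the other 4 samples, which ranged from 64.15 to 73.21%. At the Cdkn1a site 29318325 the same samples had 14.29 and 11.11%, against 29.17 to 44.83% in the others. At most other Mdm2 sites the samples numbered 2 were instead the highest. These values are given after they were seen, with no test, and the genotype of the line behind each number is not in the labels. The read depth is not known either, and values such as 14.29 and 11.11% can come from few reads.

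The Cdkn1a site 29319397, 299 bases from the 3′ end, was listed at exactly 0 in MTH-D 3 but at 14.29 to 26.67% in the other 5 samples. At the Cdkn1a site 29318805, MTH-WT 1 was listed at exactly 100%.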
